A study of Homo sapiens with 5 samples.

Results

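The butyrophilin genes described here are BTN2A1, BTN2A2, BTN3A1, BTN3A2 and BTN3A3, which are 5 of the 57905 genes of the deposited expression table. They were chosen by name, because neighbours in this family had been seen near 0 together in the line MKL-1, so every MKL-1 value below is a description and enters no main test. Messenger RNA of 5 human cell lines, each with the genotype given as WT and no treatment named, was sequenced with 1 library per line. MKL-1, MKL-2, WaGa and MCC13 are labelled Merkel cell carcinoma, which is a skin cancer with neuroendocrine features (n = 4), and REH is labelled pre-B-cell acute lymphoblastic leukemia (n = 1). The series compares the carcinoma lines with the leukemia line around PAX5, a B-lineage transcription factor. Levels are in TPM, a length-corrected share of all transcripts with the same total in every library, so levels can be compared between genes.

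Butyrophilins are membrane proteins of the immunoglobulin superfamily, related to the B7 costimulatory ligands. BTN3A1 binds small phosphorylated metabolites of the mevalonate and microbial isoprenoid pathways, called phosphoantigens, with its intracellular B30.2 domain. Together with BTN2A1, which contacts the Vγ9 chain of the T-cell receptor, it allows Vγ9Vδ2 T cells to recognise a target cell. The genes lie next to each other on chromosome 6, on the telomeric side of the major histocompatibility complex, and the BTN3A genes are known to respond to interferon and to NLRC5, the activator of MHC class I genes.

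Promoter windows of 3 of the 5 genes were found in RefSeq (assembly GRCh38.p14, 300 bases around an annotated start). The windows are shown because BTN3A2 and BTN3A3 followed the same order over the lines and BTN2A1 another, and because promoters of MHC class I and related genes are known for an X box bound by the RFX complex and a CCAAT box bound by NF-Y. Capitals mark every match on either strand to a core of the X box (the letters GCAAC, then 3 bases of any kind, then TG) and to the CCAAT box, which appears reversed as ATTGG when it lies on the minus strand. The coordinates belong to GRCh38.p14 and not to the build of the expression table.
BTN3A2, chr6:26364948-26365247, plus strand: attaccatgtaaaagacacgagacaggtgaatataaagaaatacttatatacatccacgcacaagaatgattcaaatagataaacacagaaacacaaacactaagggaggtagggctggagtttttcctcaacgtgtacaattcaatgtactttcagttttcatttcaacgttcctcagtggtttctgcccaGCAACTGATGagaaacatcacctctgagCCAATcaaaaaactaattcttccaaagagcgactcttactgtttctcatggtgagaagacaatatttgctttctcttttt
BTN3A3, chr6:26440254-26440553, plus strand: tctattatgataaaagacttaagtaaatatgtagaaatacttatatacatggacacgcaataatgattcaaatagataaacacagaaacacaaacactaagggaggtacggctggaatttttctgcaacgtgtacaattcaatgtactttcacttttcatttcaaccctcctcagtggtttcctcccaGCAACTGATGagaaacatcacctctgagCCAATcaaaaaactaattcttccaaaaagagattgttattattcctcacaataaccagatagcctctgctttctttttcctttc
BTN2A1, chr6:26457705-26458004, plus strand: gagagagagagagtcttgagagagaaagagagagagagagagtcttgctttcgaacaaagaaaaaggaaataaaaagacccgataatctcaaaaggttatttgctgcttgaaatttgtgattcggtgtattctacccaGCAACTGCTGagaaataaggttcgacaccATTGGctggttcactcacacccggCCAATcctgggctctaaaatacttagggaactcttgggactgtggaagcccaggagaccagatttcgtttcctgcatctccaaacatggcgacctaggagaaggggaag

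The X-box core read GCAACTGATG in BTN3A2 and BTN3A3 and GCAACTGCTG in BTN2A1. The next CCAAT box, in either orientation, lay 18 bases further on in BTN3A2 and BTN3A3 and 19 bases in BTN2A1, and the 2 motifs did not overlap. Of all 35116 windows, 2.52% held the X-box core, 34.6% held CCAAT and 1.03% held both. Among 13 MHC class I presentation genes with a window, 1 (PSMB8) held the X-box core and 8 held CCAAT. The core as spelled here was therefore not a common feature of that list. The BTN3A2 and BTN3A3 windows were 82.3% identical in a global alignment, whereas BTN2A1 and BTN3A2 were 43.5% identical, and the printed BTN3A2 window and the other annotated window of that gene, which held no match to either motif, were 47.8% identical. An interferon response pattern (GAAA repeated after 2 bases of any kind) was found once, in BTN3A3 on the opposite strand, and in 3.57% of all windows. No window of these genes held TGACGTCA (1.85% of all windows) or GGGCGG (45.0%). With 34.7% to 45.7% G and C bases, the printed windows lay below the median of all windows, 58.7%. A match is a description of letters and not a measured binding site.

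BTN2A1 was the only one of the 5 above 0.5 TPM in every line. MKL-1 had 4.99 TPM, MKL-2 had 4.97 TPM, WaGa had 6.39 TPM, MCC13 had 53.9 TPM and REH had 21.0 TPM. The levels of MKL-1, MKL-2 and WaGa lay within 1.29-fold of each other, and MCC13 was 2.57-fold above REH. BTN2A2, a close relative of BTN2A1 known to restrain T-cell activation, was listed at 0 in MKL-1, while MKL-2 had 0.387 TPM, WaGa 0.016 TPM, MCC13 28.1 TPM and REH 27.4 TPM. MCC13 and REH were thus 1.02-fold apart, and the other 3 lines lay below 0.5 TPM. With 1 library per line there is no spread within a line, so it is unknown which neighbours in these orders differ.

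The BTN3A genes followed a different order, with REH highest, MCC13 next, then MKL-2, and MKL-1 and WaGa near 0. BTN3A1, the phosphoantigen sensor, was listed at 0 in WaGa, while MKL-1 had 0.029 TPM, MKL-2 1.04 TPM, MCC13 5.41 TPM and REH 16.0 TPM. BTN3A2, which lacks the B30.2 domain and is known to form dimers with BTN3A1, had 0.243 TPM in MKL-1, 0.019 TPM in WaGa and 3.96 TPM in MKL-2, against 18.4 TPM in MCC13 and 72.6 TPM in REH. BTN3A3, which carries a B30.2 domain, was listed at 0 in WaGa and in MKL-1 and reached 2.71 TPM in MKL-2, 9.05 TPM in MCC13 and 36.5 TPM in REH. In MKL-2, MCC13 and REH alike, BTN3A2 was the highest and BTN3A1 the lowest of the BTN3A genes. REH exceeded MCC13 by 2.96-fold for BTN3A1, 3.94-fold for BTN3A2 and 4.03-fold for BTN3A3.

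**Figure D1:**
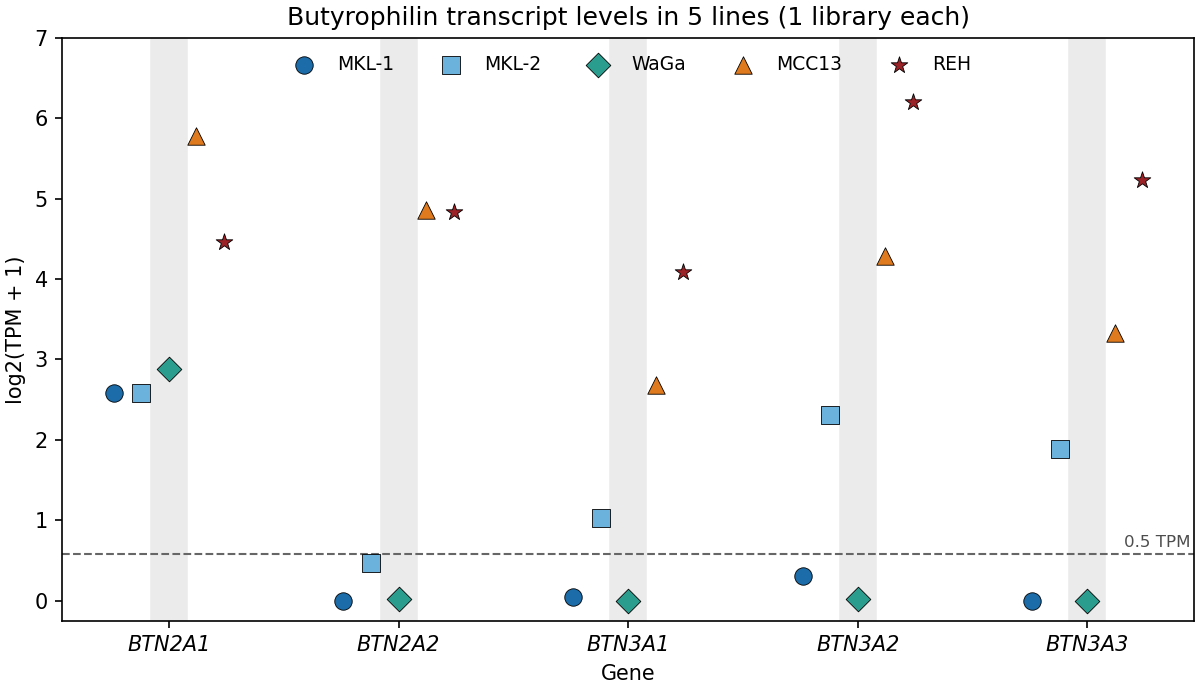
Level of each of the 5 butyrophilin genes, as log2(TPM + 1), in MKL-1, MKL-2, WaGa, MCC13 and REH. Each point is 1 library, and the dashed line marks 0.5 TPM. In MKL-1 and WaGa, 4 of 5 genes lie under the line and BTN2A1 lies above it, while MCC13 and REH lie above it for all 5.

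Low levels were shared by MKL-1 and WaGa. Taking values under 0.5 TPM as near 0, 4 of the 5 genes (all but BTN2A1) were near 0 in MKL-1, the same 4 in WaGa, BTN2A2 alone in MKL-2 and none in MCC13 or REH. The description that gave rise to the choice, near 0 together in MKL-1, therefore held for 4 genes and held equally in WaGa, which that choice did not use. Among all 13050 genes at 1 TPM or more in both MCC13 and REH, 4.8% were near 0 in MKL-1, 4.84% in WaGa, 4.42% in MKL-2 and 3.32% in MKL-1 and WaGa together. Of the 626 such genes near 0 in MKL-1, 433 were near 0 in WaGa too. Sharing of low levels by MKL-1 and WaGa was thus common among all genes and not particular to the butyrophilins. Among genes at 1 TPM or more in each of the other 4 lines, 0.532% (63 genes) were near 0 in MKL-1 alone, and none of the 5 butyrophilins was among them. The same count for WaGa alone was 0.716%, again with none of the 5. Among 12184 genes at 1 TPM or more in MKL-2, MCC13 and REH, 83 (0.681%) were near 0 in both MKL-1 and WaGa, a count taken after the levels had been seen, and BTN3A1, BTN3A2 and BTN3A3 were among these 83. BTN2A2 missed this set through its level in MKL-2. The values nearest to the limit of 0.5 TPM were BTN2A2 in MKL-2 below it (0.387 TPM) and BTN3A1 in MKL-2 above it (1.04 TPM). BTN3A1 is in the set of 83 only because this last value lies just past the limit of 1 TPM.

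The makeup of the family differed between lines. BTN3A transcripts gave 72.1% of the summed TPM of the 5 genes in REH (125 of 174 TPM), 28.6% in MCC13 (32.9 of 115 TPM) and 59.0% in MKL-2 (7.72 of 13.1 TPM). In MKL-1 and WaGa the BTN3A share was 5.17% and 0.30%, and BTN2A1 alone supplied 94.8% and 99.5% of sums of 5.26 and 6.43 TPM. The highest gene was BTN3A2 in REH and BTN2A1 in each carcinoma line. The lines were cultures, and in such bulk RNA fewer expressing cells and less RNA per cell cannot be told apart.

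Reads of these genes could in part be assigned to a relative. Of the distinct stretches of 50 bases in their GENCODE 29 transcripts, 14.7% in BTN3A3, 12.7% in BTN3A2, 7.22% in BTN3A1, 4.89% in BTN2A1 and 2.50% in BTN2A2 also occurred in another of the 5 genes or in the pseudogene BTN2A3P. BTN3A2 and BTN3A3 shared most with each other. The handling of such reads is unknown here, so single BTN3A levels are less certain than the low level of all 3 together. A value of exactly 0 can also be a failed estimate. No gene at 50 TPM or more in the other 4 lines was listed at 0 in MKL-1 and 1 such gene was in WaGa, against 21 in REH. The butyrophilins listed at 0 in a line stayed below 50 TPM in every line, so this count does not cover their zeros.

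The carcinoma lines were compared with REH without MKL-1, to ask whether butyrophilin RNA differed between the tumour types. All 5 differences were negative, and none passed the threshold. On the scale log2(TPM + 1), which understates the change of low genes, MKL-2, WaGa and MCC13 lay below REH by -4.00 ± 1.95 (SE) for BTN3A2 (limma, adjusted p = 0.496), -3.49 ± 1.59 for BTN3A3 (adjusted p = 0.465) and -2.85 ± 1.31 for BTN3A1 (adjusted p = 0.470). The 2 BTN2A genes had differences of -3.04 ± 2.42 for BTN2A2 (limma, adjusted p = 0.681) and -0.71 ± 1.61 for BTN2A1 (adjusted p = 0.857). Each BTN3A gene was lower in 3 of 3 lines than in REH, whereas BTN2A1 and BTN2A2 were lower in 2 of 3, with MCC13 above REH.

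In that comparison 0% of 21822 tested genes passed, and 14.6% (3194 genes) had an unadjusted p under 0.05 (9.98% lower and 4.66% higher than REH), none of them one of the 5 butyrophilins (limma). All 3 carcinoma lines lay below REH for 28.5% of tested genes, against 3 of 5 here. The median difference of the 5 genes was -3.04, and of all tested genes 0.14. BTN2A2 passed the filter on low values only through MCC13 and REH, and the genes were chosen for low levels, so the count and the median are descriptions. With 3 lines against 1, the smallest p of an exact permutation test is 0.25. Without MCC13 the BTN2A1 difference was -1.73 and that of BTN2A2 -4.58, both larger than with it, and neither passed.

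MCC13 was then compared with MKL-2 and WaGa. MCC13 lay above both lines for all 5 genes, and the BTN2A genes had the smallest unadjusted p, but none passed. The log2(TPM + 1) difference was 4.62 ± 0.42 (SE) for BTN2A2 (limma, adjusted p = 0.133) and 3.05 ± 0.41 for BTN2A1 (adjusted p = 0.148). For the BTN3A genes it was 3.11 ± 1.38 for BTN3A2 (limma, adjusted p = 0.348), 2.38 ± 1.15 for BTN3A3 (adjusted p = 0.369) and 2.17 ± 0.65 for BTN3A1 (adjusted p = 0.256). The BTN3A errors were larger than the BTN2A errors, and MKL-2 and WaGa differed more for the BTN3A genes.

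Here 0% of 20155 tested genes passed, and 21.9% had an unadjusted p under 0.05, of which 11.4% of genes tested (2295) were higher in MCC13, against 2 of 5 butyrophilins, BTN2A1 and BTN2A2 (limma). MCC13 exceeded both other lines for 33.3% of tested genes, against 5 of 5 here. The median difference was 3.05 for the 5 genes and -0.26 for all tested genes. BTN2A2 passed the filter on low values only through MCC13, the line where it was high, so its difference, these counts and the median are descriptions. Without WaGa the difference was 1.97 for BTN3A2 and 1.44 for BTN3A3, with no test. When MKL-1 was added to MKL-2 and WaGa, BTN2A2 and BTN2A1 passed (limma, adjusted p = 0.0122 and 0.0335), together with 1852 of 20698 genes, but that fit uses the values on which the genes were chosen. With 1 line against 2, the smallest p of an exact permutation test is 0.333.

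**Figure D2:**
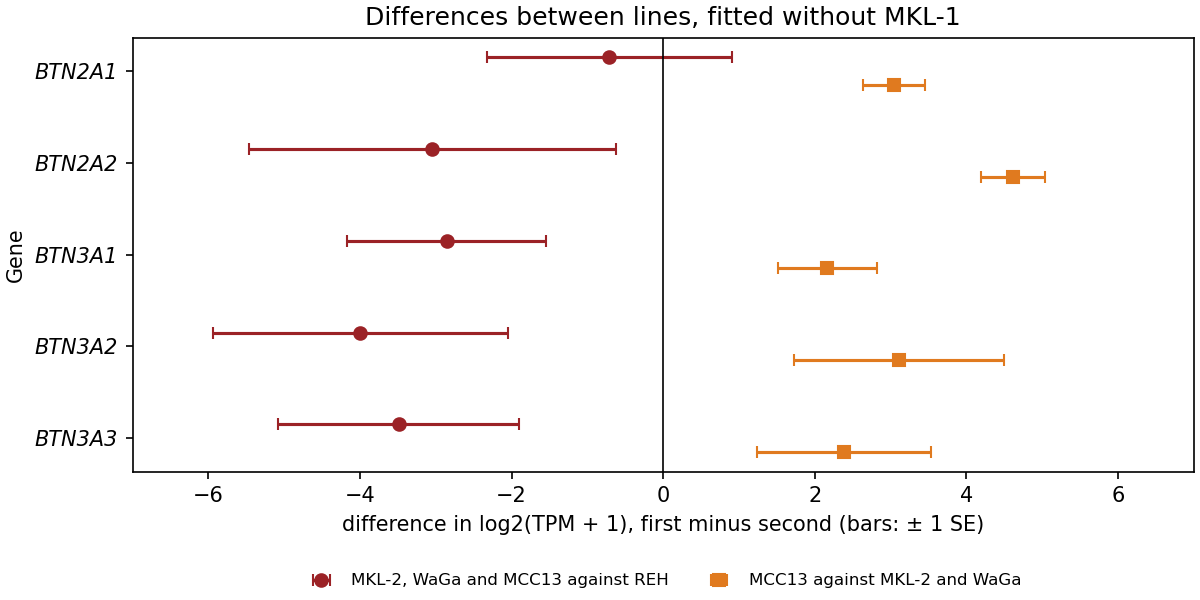
Fitted difference in log2(TPM + 1) for each butyrophilin gene in the 2 comparisons made without MKL-1, with bars of 1 SE either side. Circles give MKL-2, WaGa and MCC13 minus REH, from -4.00 to -0.71, and squares give MCC13 minus the mean of MKL-2 and WaGa, from 2.17 to 4.62. No difference passed at an adjusted p of 0.05.

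Among 9 other genes of the family, 2 reached 1 TPM in a line. The pseudogene BTN2A3P, which lies between BTN3A1 and BTN3A3, reached 5.45 TPM in MCC13 and 4.51 TPM in REH and was listed at 0 elsewhere. As for BTN2A2, MCC13 and REH were the only lines above 0.5 TPM. ERMAP, an erythroid butyrophilin-like protein gene, had another order, with REH lowest at 2.14 TPM, then MCC13 at 5.42 TPM, WaGa at 7.08 TPM, MKL-2 at 14.0 TPM and MKL-1 highest at 21.1 TPM. Neither passed in either comparison (limma, adjusted p from 0.133 to 0.708). In the MCC13 fit BTN2A3P passed the filter on low values only through MCC13, where it was high, so its difference there is a description. BTN1A1, the milk-fat butyrophilin, BTNL2, BTNL3, BTNL8, BTNL9, BTNL10 and MOG, a myelin protein gene, stayed below 1 TPM in all 5 lines.

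Of the 20 annotated genes before BTN3A2 and the 20 after BTN2A1, 35 were matched to the table (24 by identifier and 11 by symbol), and 5 were not matched. None of the 35 was near 0 in MKL-1 and at 1 TPM or more in the other 4 lines. One of them, HIST1H3E, was near 0 in MKL-1 and WaGa and at 1 TPM or more in the other 3 lines, like the BTN3A genes. This histone gene was listed at 0 in both, with 1.03 TPM in MKL-2, 1.90 TPM in MCC13 and 2.01 TPM in REH, and it was named after its values had been seen. The nearest protein-coding neighbour before the cluster in the table, HIST1H4H, a replication-dependent histone gene, stood at 2.39 to 7.47 TPM in the 5 lines, and the nearest after it, BTN1A1, at most at 0.257 TPM. HMGN4, a nucleosome-binding protein gene, ABT1, a basal transcription activator, and ZNF322, a zinc finger gene, are the next coding genes and were named after their values had been seen. HMGN4 stood at 63.4 to 160.5 TPM, ABT1 at 41.9 to 79.9 TPM and ZNF322 at 3.67 to 14.3 TPM. For HMGN4, MKL-1 (112 TPM) and WaGa (79.0 TPM) were above MKL-2.

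**Figure D3:**
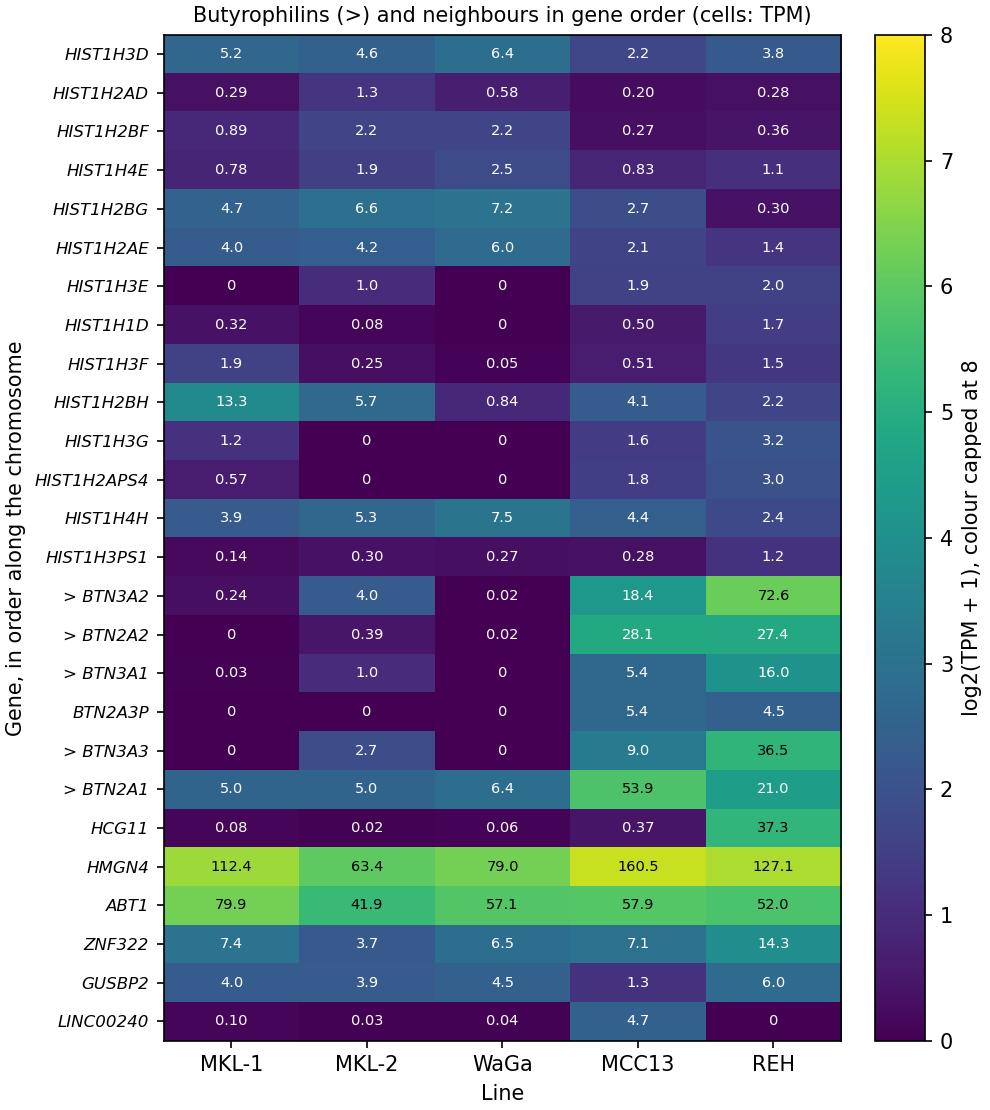
TPM of the butyrophilin genes (marked >) and of matched neighbouring genes that reached 1 TPM in a line, without clone-named genes, in gene order along chromosome 6 from top to bottom, with 1 column per line. Numbers are TPM, and colour is log2(TPM + 1), capped at 8. In MKL-1 and WaGa all rows from BTN3A2 to BTN3A3 lie under 0.5 TPM. So do HIST1H3E, HIST1H1D and HIST1H3PS1 before them and HCG11 and LINC00240 after BTN2A1, so low rows are not limited to the butyrophilins. BTN2A1, HMGN4 and ABT1 stand above 4 TPM in all 5 lines.

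The mevalonate pathway, whose intermediate isopentenyl pyrophosphate is the endogenous phosphoantigen, was expressed in every line. All 10 listed genes stood at 28.5 TPM or more in each line, and none passed in either comparison (limma, adjusted p from 0.133 to 0.987). FDPS, the farnesyl diphosphate synthase that consumes this intermediate, ranged from 246 TPM in MCC13 and 292 TPM in MKL-1 over 456 TPM in WaGa to 674 TPM in REH and 694 TPM in MKL-2. HMGCS1, an early enzyme of the pathway, ranged from 51.1 TPM in MCC13 over 180 TPM in MKL-1, 237 TPM in REH and 830 TPM in WaGa to 994 TPM in MKL-2. ACAT2, which supplies acetoacetyl-CoA, stood at 74.6 to 352 TPM and GGPS1, the geranylgeranyl diphosphate synthase, at 28.5 to 47.2 TPM. Median differences of the list were 0.03 between the carcinoma lines and REH and -1.51 between MCC13 and MKL-2 with WaGa, and in the latter 5 of 10 genes were lower at an unadjusted p under 0.05 (background 10.5%).

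Of 4 genes reported to act beside BTN3A1 in phosphoantigen sensing, none passed in either comparison (limma, adjusted p from 0.176 to 0.976). RHOB, a small GTPase, stood at 36.7 to 171 TPM, and ABCA1, a lipid exporter, at 9.74 to 30.6 TPM. MAP4, a microtubule protein, stood at 31.5 TPM in REH and 56.8 to 146 TPM elsewhere. PPL, periplakin, reached at most 3.08 TPM, in MCC13. Median differences were 0.69 against REH and 0.52 for MCC13.

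Of 21 listed regulators of MHC class I and butyrophilin transcription, 17 were at 1 TPM or more in each of MKL-1, MKL-2, WaGa and MCC13, and all 21 in REH. NLRC5 was lowest in MKL-1 (8.13 TPM), followed by MCC13 (11.8 TPM), WaGa (12.0 TPM) and MKL-2 (16.5 TPM), and was highest in REH (40.8 TPM). RFX5, RFXAP and RFXANK of the RFX complex and NFYA, NFYB and NFYC of NF-Y each stood at 3.96 TPM or more in all 5 lines. IRF1, an interferon-induced activator, was lowest in WaGa (2.03 TPM), between 18.5 and 29.1 TPM in the other carcinoma lines and highest in REH (141 TPM). NLRC5, the RFX and NF-Y subunits and IRF1 were singled out from the list after their values had been seen. SPI1 (PU.1), SPIB and CIITA, the class II activator, are haematopoietic and were below 0.6 TPM in each carcinoma line, at 180, 34.8 and 105 TPM in REH. RUNX1, a haematopoietic factor, was highest in REH (45.7 TPM), then MCC13 (22.2 TPM), MKL-2 (0.998 TPM) and MKL-1 (0.006 TPM), and listed at 0 in WaGa, an order of lines like that of BTN3A2.

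None of 21 tested regulators passed against REH (limma, adjusted p from 0.0802 to 0.966), with 1 higher and 4 lower at an unadjusted p under 0.05 (4.66% and 9.98% of all genes tested) and a median difference of -1.21. None of 18 passed for MCC13 (limma, adjusted p from 0.172 to 0.914), with 1 higher, RUNX1, and none lower at an unadjusted p under 0.05 (11.4% and 10.5% of all genes tested) and a median of -0.21. RUNX1 passed the filter on low values in that fit only through MCC13, where it was high. SPI1, SPIB and CIITA, among those lower against REH, passed it only through REH. Their differences and these counts are therefore descriptions.

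The MHC class I presentation genes share part of the pattern. PSMB9 encodes a subunit of the immunoproteasome and had 378 TPM in REH, 126 TPM in MCC13 and 10.6 TPM in MKL-2, with WaGa and MKL-1 listed at 0. PSMB8, its neighbour, had 432 TPM in REH, 177 TPM in MCC13, 104 TPM in MKL-2, 2.17 TPM in MKL-1 and 1.64 TPM in WaGa. HLA-B differed from the BTN3A genes, since WaGa (322 TPM) stood well above MKL-2 (15.1 TPM), and MKL-1 stood at 0.064 TPM. ERAP2, a peptide-trimming enzyme, was highest in REH (59.5 TPM), followed by MKL-2 (9.58 TPM), MCC13 (3.51 TPM), MKL-1 (1.37 TPM) and WaGa (0.113 TPM). None of 16 rows, for 15 genes, passed against REH (limma), with all 16 differences negative. Their median was -2.78 (0.14 for all tested genes), and every compared carcinoma line lay below REH in 14 rows (28.5% of tested genes). HLA-G and the lower TAP2 row passed the filter on low values only through REH, which fixed their sign in advance. For MCC13 none of 14 rows passed, with 13 positive and a median of 2.65 (-0.26 for all tested genes). MCC13 exceeded both MKL-2 and WaGa in 11 rows (33.3% of tested genes). HLA-E went the other way (-0.89), and it was higher in MKL-2 (695 TPM) than in REH (355 TPM). These counts and medians are descriptions.

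The genes whose profile over the 5 lines was most like the mean of the 5 butyrophilins were found by the root mean square difference of centred log2(TPM + 1) values, over 17648 genes. The 10 nearest, in order, were PROSER2, AIM1, TMEM63A, IKBKE, IFIT3, ISG15, DOCK11, IFI35, MYC and EHBP1L1, with differences of 0.25 to 0.35 log2 units. BTN3A1 itself lay at 0.36 from that mean, the least of the 5, and BTN2A1 lay farthest from it. IFIT3, an interferon-induced RNA-binding protein, had 30.1 TPM in REH, 10.9 TPM in MCC13, 2.49 TPM in MKL-2 and 0.292 TPM in MKL-1 and was listed at 0 in WaGa. ISG15, a ubiquitin-like modifier, had 183 TPM in REH, 56.1 TPM in MCC13, 9.85 TPM in MKL-2, 4.86 TPM in MKL-1 and 4.70 TPM in WaGa. IKBKE, a kinase of innate immune signalling, stood at 0.062 TPM in WaGa and 21.1 TPM in REH, and DOCK11, a guanine nucleotide exchange factor, reached 18.3 TPM in REH against 0.057 TPM in MKL-1. With 5 points such likeness is a description, and the mean includes the MKL-1 values.

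**Figure D4:**
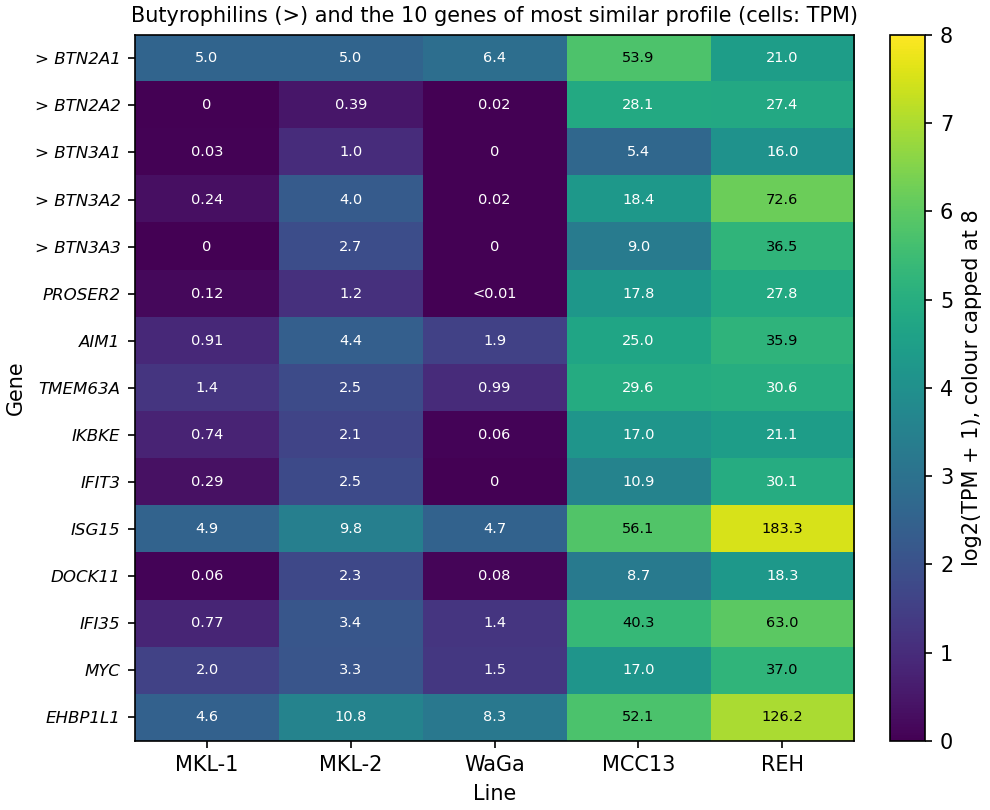
TPM of the 5 butyrophilin genes (marked >) and of the 10 genes with the most similar profile over the 5 lines, with 1 column per line. Numbers are TPM, and colour is log2(TPM + 1), capped at 8. In all 15 rows MCC13 and REH stand above the other 3 lines.

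Defining markers were checked against the labels. The 6 Merkel cell markers (ATOH1, SOX2, KRT20, CHGA, SYP and INSM1) were all at 14.5 TPM or more in WaGa, MKL-2 and MKL-1. In MCC13, labelled Merkel cell carcinoma, their sum was 4.59 TPM, with ATOH1, KRT20 and INSM1 listed at 0, and MCC13 was also the carcinoma line with the highest level of all 5 butyrophilins. Of 6 B-lineage markers 5 were expressed in REH, with VPREB1 listed at 0, and their sum was 4053 TPM in REH and 0.654 to 143 TPM in the carcinoma lines. The 6 T and NK cell markers summed to 0.354 to 2.74 TPM in the carcinoma lines and 14.1 TPM in REH (NKG7 10.4 TPM and CD247 3.66 TPM), with CD3D, CD3E and CD2 listed at 0 in all 5 lines. The 6 myeloid markers summed to 2.19 to 4.74 TPM in the carcinoma lines and 40.6 TPM in REH. Fibroblast markers summed to 89.0 TPM in MCC13 (COL1A1 and COL1A2 highest), 68.9 TPM in REH and 3.80 to 28.9 TPM elsewhere, and endothelial markers to 1.54 to 14.6 TPM. The part of these markers in the butyrophilin levels was not tested.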

How the data were processed

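Messenger RNA of 5 cell lines was enriched with oligo-dT and sequenced as directional libraries, per the labels' protocols. TPM values were computed by the authors and deposited as 1 table, and the tools were StringTie 1.3.5, SAMtools 0.1.19, STAR 2.4.5b and bcl2fastq 2.20 per the submitters' processing notes, which list GRCh37 (hg19) as the build and give no roles. The gene annotation and the treatment of multi-mapped reads were not given in the sources used here. As a unit, TPM keeps no depth, so the depth behind each value is unknown. In the table, 1 column of values matched no sample and was not used, and the PAX5 exon file was not used.

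Genes reaching 1 TPM in any compared line entered a limma fit (version 3.58.1, R 4.3.3) of log2(TPM + 1) (variance trend, 2-sided, Benjamini-Hochberg over all genes tested, threshold 0.05). MKL-1 was left out of both comparisons because the genes were chosen on its values. The spread of the group with more lines stands for a group with 1 line, and p measures the spread between lines, with 2 residual degrees of freedom against REH and 1 for MCC13. GENCODE 29 held 52338 of the identifiers, and a further 844 genes were matched to it by a unique symbol. It served for the order of genes, their types and their transcript sequences, not for coordinates. Promoter windows came from RefSeq by symbol. The fits were run on simulated data with large differences set in well-expressed genes, and the check was that their direction was recovered. The simulated spread was set in advance and not taken from these lines. It therefore gives no error rate or power for the genes described here.

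The genes and lists were chosen with earlier results of these data known. The rule for naming took the 5 genes, up to 4 genes of each of 5 lists with the largest difference from REH, the 10 most similar profiles (passing over 4597 clone names, receptor segments and Y-linked genes) and the nearest coding neighbours. All 59 list genes and 36 markers were matched by symbol. TAP2 has 2 identifiers. Alternatives were other pseudocounts (0.1 and 0.5 TPM), filters, quantile normalization, no variance trend, MKL-1 added and each carcinoma line left out.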

Additional observations from a re-analysis of the deposited data

Results flagged for a closer look

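BTN2A1 in MCC13, at 53.9 TPM, stood apart from the other 3 Merkel cell carcinoma lines (4.97 to 6.39 TPM). The gap to the nearest line was 0.971 of the whole range, above Dixon's critical value for 4 samples. BTN2A2 in MCC13, at 28.1 TPM, stood apart in the same way (0.986 of the range). Both values include MKL-1, on whose levels the genes were chosen, and for BTN2A2 the level of MKL-1 (listed at 0) sets the lower end of the range, so they are descriptions. For the BTN3A genes the gap was 0.700 to 0.808 of the range and did not reach the critical value. Chance flags about 1 in 20 such groups if values are normally distributed, which was not checked for these untransformed TPM values. How many of all genes this rule would flag was not counted, so the flags are not shown to be particular to these genes. MCC13 exceeded both MKL-2 and WaGa for 33.3% of tested genes.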

How the results depend on the processing

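All member differences kept their direction under every alternative that could be fitted, and none passed except BTN2A1 (3.10) and BTN2A2 (4.70) in MCC13 when MKL-1 was added. Against REH, 0 genes passed with the filter and without MKL-1. Without a filter on low values 2931 of 57905 genes passed, and with MKL-1 added 1166 of 22250. For MCC13 the counts were 0, 2152 of 57905 and 1852 of 20698. Without a filter, 3 of the 21 regulators passed against REH and 1 for MCC13, and 1 of the 9 other family genes passed for MCC13. With MKL-1 added, 3 regulators and 1 MHC class I gene passed against REH, and 1 other family gene, 1 regulator and 1 MHC class I gene for MCC13. The fits with MKL-1 use the values on which the butyrophilins were chosen, so these counts are descriptions. Filtering at a mean of 5 TPM removed BTN3A1 and BTN3A3 from the MCC13 comparison. Without MCC13, the differences from REH ran from -5.03 to -1.73 and still none passed (BTN2A2 lowest, limma, adjusted p = 0.124). The difference of BTN2A1 from REH, -0.71 with MKL-2, WaGa and MCC13, was -0.13 without MKL-2 and -0.28 without WaGa. Genes near 0 in MKL-1 and expressed in the other 4 lines numbered 63 under 0.5 TPM, 25 under 0.1 TPM, 162 under 1 TPM and 5 when the others had to reach 5 TPM. Those near 0 in both MKL-1 and WaGa numbered 83, 23, 158 and 18. Leaving out MKL-2 or WaGa leaves 1 line for MCC13 to be compared with, so these differences have no test; without WaGa they were 1.97 for BTN3A2 and 1.44 for BTN3A3 (3.11 and 2.38 with it). A pseudocount of 0.1 TPM took BTN3A1 from 2.17 to 4.03, BTN3A2 from 3.11 to 4.73 and BTN3A3 from 2.38 to 4.11 in that comparison. No paired analysis was possible because each line has 1 library and the replicate numbers only name lines. The cause of these changes was not tested. Quantile normalization moved the median difference of all genes from 0.14 to 0.02 against REH and from -0.26 to -0.11 for MCC13. Unknown depth limits every value near 0.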

Other observations

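There were 83 genes near 0 in both MKL-1 and WaGa and at 1 TPM or more in MKL-2, MCC13 and REH. Of these, 14 (16.9%) were annotated on chromosome 6, the 3 BTN3A genes and HIST1H3E included. Among the 12184 genes at 1 TPM or more in MKL-2, MCC13 and REH, 592 (4.86%) were. The set was defined after the BTN3A levels had been seen, so these 3 genes are in the count by construction. No chromosome was assigned to 3 of the 83, and the difference between the shares was not tested. TAP1, a peptide transporter subunit of MHC class I loading, had 123 TPM in REH, 91.5 TPM in MCC13 and 40.2 TPM in MKL-2, against 0.333 TPM in MKL-1 and 0.399 TPM in WaGa. HCP5, a long noncoding RNA gene of the MHC region, stood at 0.016 and 0.366 TPM in MKL-1 and WaGa and at 3.97, 1.14 and 22.6 TPM in MKL-2, MCC13 and REH. MB21D1, which encodes the DNA sensor cGAS, stood at 0.415 and 0.192 TPM against 10.3, 2.88 and 38.7 TPM in the same lines. On other chromosomes, PARP9 and DTX3L, which encode partner proteins, were listed at 0 in MKL-1 and stood at 0.055 and 0.182 TPM in WaGa. PARP9 reached 7.07, 11.7 and 26.0 TPM, and DTX3L 7.78, 26.6 and 55.2 TPM, in MKL-2, MCC13 and REH. BST2, the tetherin gene, stood at 0.036 and 0.122 TPM in MKL-1 and WaGa and 10.7, 6.93 and 492 TPM in the other 3. These genes were chosen after their values had been seen, and the set of 83 was not tested for any theme. Genes of other kinds, such as CTGF, LAMC1 and PRNP, were in the set too, so the genes described do not stand for all of it.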
